A study of Mus musculus with 11 samples.

Results

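MicroRNA genes are a small class on a whole-transcript array, and 296 of them had a probe set that was annotated with their symbol alone. The members were every probe set with a single symbol of the form Mir and a number, or Mirlet7, leaving out the long host transcripts of microRNAs. A gene counted as measured when its probe set lay above the 25th percentile of the array on at least 2 of the 11 arrays, and 163 microRNA genes passed, out of 16527 genes of all kinds. The other 133 microRNA genes lay below that level, 124 of them on every array, and 61 microRNA probe sets that carried several symbols were left out.

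The RNA came from fluorescent cells sorted from the microdissected dentate gyrus, the part of the hippocampus that goes on making neurons in the adult, of mice at postnatal day 35. About 3000 to 5000 cells were collected per group, and their RNA was amplified before hybridization to Affymetrix arrays of the Mouse Gene 1.0 ST type. NesGFP mice (3 arrays) carry a green fluorescent protein transgene of Nestin, PomcGFP mice (2 arrays) one of Pro-opiomelanocortin-alpha, and tgTbr2GFP mice (3 arrays) a bacterial artificial chromosome transgene of Eomes, the gene of Tbr2. In kiTbr2GFP mice (3 arrays) the fluorescent protein was knocked into Eomes itself. Nestin is a filament of neural stem cells, Tbr2 a transcription factor of intermediate progenitors, and the Pomc reporter is known to label newborn granule neurons. Each reporter defines its group only by the cells in which its promoter is active, and the labels leave unsaid whether replicate arrays stem from different animals, so that p-values here measure array-to-array spread that could be technical.

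A microRNA is cut from a hairpin in a longer transcript, first in the nucleus by Drosha and Dgcr8 and then in the cytoplasm by Dicer1, and the finished strand guides an Argonaute protein to messenger RNAs. Pairing rests mainly on the seed, the bases 2 to 8 of the mature strand, so microRNAs that share a seed share many targets. Many microRNA genes lie in clusters that are transcribed together, or in introns of protein-coding host genes. In the brain, let-7 and miR-124 are known from differentiating neurons, miR-9 from neural progenitors and miR-17 and its relatives from dividing cells. The annotation lists only a hairpin accession for 161 of the 163 measured genes, and whether a probe set read the mature strand, the hairpin or the longer transcript was not tested.

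The mature sequences below belong to the genes on which the results turn, and were taken from RefSeq (GRCm38.p6), which held an entry for 146 of the 163 measured genes. Capitals mark the seed, and sequences are grouped by it. The first group, with the seed ACCCGUA, was chosen because its 3 measured genes covered most of the range of differences found.

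miR-99a-5p: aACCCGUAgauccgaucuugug
miR-100-5p: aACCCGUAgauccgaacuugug
miR-99b-5p: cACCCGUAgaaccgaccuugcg

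The let-7 family has the seed GAGGUAG, and 7 of its measured genes had that strand in the table. It is shown because 1 gene of it, Mirlet7c-1, stood far from the others.

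let-7c-5p: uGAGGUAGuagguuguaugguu
let-7a-5p: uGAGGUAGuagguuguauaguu
let-7d-5p: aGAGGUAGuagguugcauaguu
let-7e-5p: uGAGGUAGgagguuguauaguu
let-7f-5p: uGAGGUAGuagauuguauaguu
let-7g-5p: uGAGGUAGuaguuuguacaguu
let-7i-5p: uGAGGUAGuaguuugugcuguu

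The miR-17 seed, AAAGUGC, came from 2 separate clusters, and that of miR-18a differs from it within the seed. These are shown because most measured genes of both clusters rose.

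miR-17-5p: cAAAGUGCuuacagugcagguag
miR-93-5p: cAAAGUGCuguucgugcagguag
miR-106b-5p: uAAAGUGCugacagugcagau
miR-18a-5p: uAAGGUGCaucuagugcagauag

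The seed AGCAGCA belongs to the miR-15 family, and CACAGUG to miR-128, whose mature strand is the same from both of its genes. They are shown because fitted differences were unequal among genes with the same seed, or the same strand.

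miR-15a-5p: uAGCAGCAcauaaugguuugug
miR-16-5p: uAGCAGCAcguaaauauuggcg
miR-195a-5p: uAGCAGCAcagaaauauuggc
miR-497a-5p: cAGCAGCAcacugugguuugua
miR-128-3p: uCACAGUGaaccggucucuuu

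The remaining sequences belong to genes with the largest differences in either direction, none of which shares its printed seed with another sequence shown here.

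miR-690: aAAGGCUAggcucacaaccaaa
miR-350-3p: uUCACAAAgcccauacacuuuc
miR-325-3p: uUUAUUGAgcaccuccuaucaa
miR-374b-5p: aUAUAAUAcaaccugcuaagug
miR-186-5p: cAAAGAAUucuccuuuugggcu
miR-340-5p: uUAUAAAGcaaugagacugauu
miR-568: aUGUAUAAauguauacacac
miR-302d-3p: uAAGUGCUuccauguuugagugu
miR-219a-5p: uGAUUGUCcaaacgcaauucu
miR-129-5p: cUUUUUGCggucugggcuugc

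MicroRNA genes were mostly higher in the progenitors and newborn neurons than in NesGFP cells. Throughout, a rise or fall in both Tbr2 lines refers to the mean of the kiTbr2GFP and tgTbr2GFP line means, not to each line alone. In the comparison of both Tbr2 lines with NesGFP, 86 of the 163 measured microRNA genes rose and 2 fell (limma moderated test, adjusted p under 0.05 over all 16527 genes), whereas 19.8% of all genes rose and 29.1% fell. Of the 86, 31 rose more than 2-fold, and since the share of all genes beyond 2-fold was not counted, this number is not read as unusual. Of these 31, 19 lay below the 25th percentile on all 3 NesGFP arrays, where a value is taken here as not reliably measured, and 18 of the 31 were still beyond 2-fold when NesGFP values below that percentile were set at it. The median difference was 0.42 on the log2 scale over the measured microRNA genes and -0.02 over all genes, with quartiles of the microRNA genes at 0.19 and 0.78. All 3 NesGFP arrays lay below the 8 other arrays for 67 microRNA genes (41.1%, against 14.6% of all genes) and above them for 1 (0.613%, against 23.3%).

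**Figure D1:**
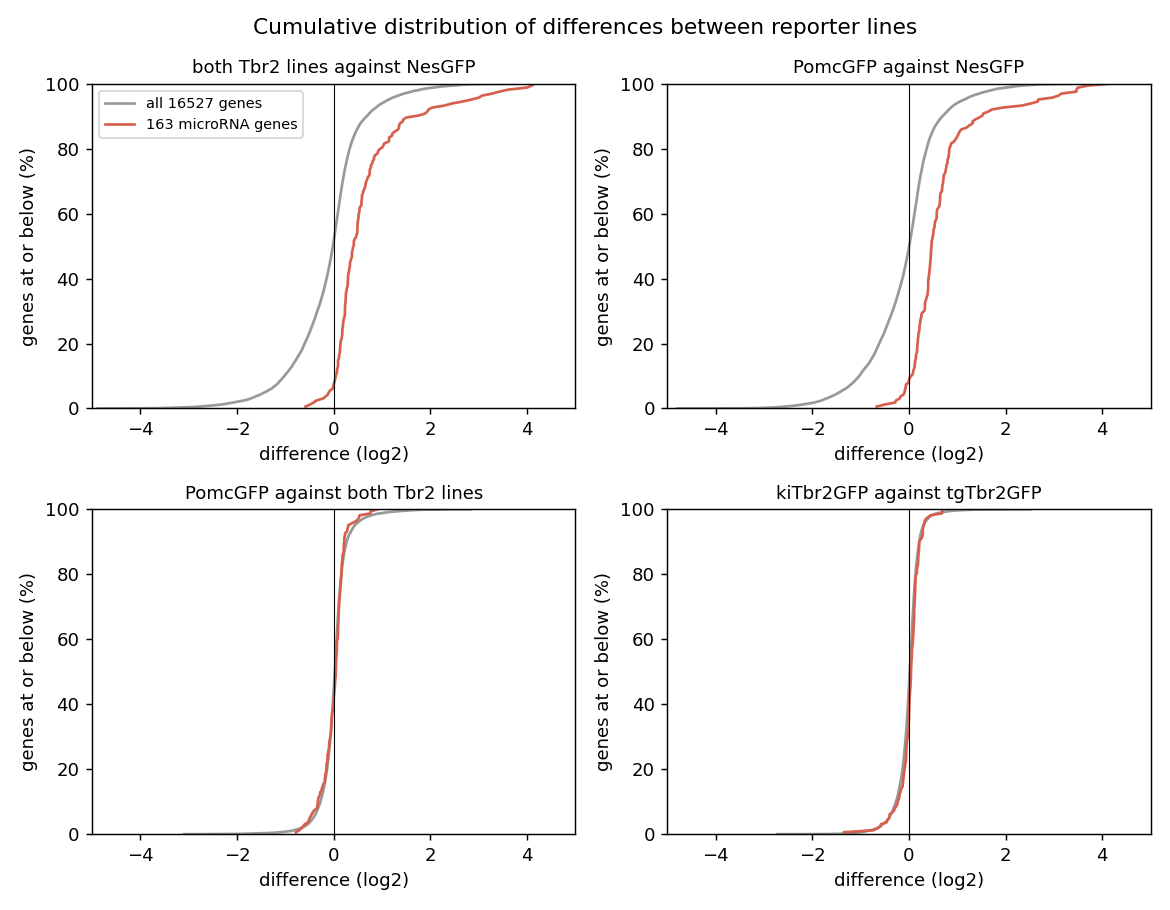
Each panel plots, against a difference between reporter lines (log2, horizontal axis), the percentage of genes at or below it (vertical axis), for the 163 measured microRNA genes and for all 16527 genes. In both comparisons with NesGFP the microRNA curve lies to the right of the curve of all genes (medians 0.42 against -0.02, and 0.47 against 0.00), and in the other 2 panels the curves nearly coincide.

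The filter alone could favour genes that are high in 1 line, since 25 of the measured genes lay below the 25th percentile on all 3 NesGFP arrays, 22 of which rose. Over the other 138 genes, 64 rose and 2 fell, with a median of 0.34. The share of all genes under the same restriction was not counted, and the part of the filter was not tested. Without any filter 105 of the 296 genes rose and 8 fell, against 17.4% and 24.1% of all genes. Genes of every level were among those that rose: in 4 equal bins of all genes by mean level, from the lowest to the highest, 31 of 65, 21 of 46, 20 of 35 and 14 of 17 microRNA genes rose, against 15.6%, 17.1%, 18.9% and 27.7% of all genes. Cyclic loess and centring on the array median kept the direction, with 102 higher and 3 lower, and 112 higher and 1 lower. Centring each array on the median of its microRNA genes sets the class near 0 by construction, since it shifts every difference by -0.49 (31 microRNA genes higher and 45 lower, median of all genes -0.51). It turns the sign of every smaller rise, such as those of Mir143, Mir188, Mir338, Mir449a, Mir497 and Mir139.

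The 3 NesGFP arrays stood apart in other ways. Over the 163 genes they correlated with the arrays of other lines at a Pearson r of 0.52 to 0.74. The arrays of the other lines correlated among themselves at 0.87 to 0.94, a range that includes replicates of 1 line. The NesGFP arrays correlated among themselves at 0.85 to 0.92. All 6 measured markers of endothelial cells, all 5 of mural cells and all 4 of oligodendrocytes fell in the mean of both Tbr2 lines against NesGFP. So did all 7 of stem cells and astrocytes. Averaged over the list, the endothelial level lay between 10.06 and 10.28 on the NesGFP arrays and between 6.31 and 7.30 on the others, and the oligodendrocyte level between 10.69 and 11.01 against 7.15 to 9.02. Eomes was higher in the Tbr2 lines by 1.28 ± 0.17 (SE) and Nes fell by 1.30 on the log2 scale (-1.30 ± 0.16). The part of these other cell types in the microRNA differences was not tested, and in bulk samples fewer cells of a type and less RNA per cell cannot be told apart.

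Mir99a and Mirlet7c-1, neighbours within 10000 bases on chromosome 16, had 2 of the 3 largest differences. Mir99a stood at 5.33, 7.20 and 8.68 on the NesGFP arrays, at 11.46, 11.34 and 10.88 in kiTbr2GFP, at 11.04, 11.37 and 11.26 in tgTbr2GFP and at 10.59 and 10.95 in PomcGFP. The NesGFP arrays were widely spread and all lay below the other 8. Its difference between both Tbr2 lines and NesGFP was 4.15 ± 0.52 (SE, limma adjusted p = 4.84e-05), or 17.8-fold, and leaving out 1 array at a time moved it between 3.28 and 4.96.

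Mirlet7c-1 read 3.77, 3.96 and 4.29 in NesGFP, 8.0, 7.62 and 8.46 in kiTbr2GFP, 7.84, 8.39 and 7.73 in tgTbr2GFP and 7.35 and 7.60 in PomcGFP. Again the groups did not overlap, here with a narrow spread in NesGFP that lay under the 25th percentile of those arrays (5.90 to 6.01). The difference was 4.0 ± 0.20 (adjusted p = 6.74e-08), and the rise was at least 4.18-fold with the NesGFP arrays set at their 25th percentiles. Mir99ahg, the long transcript named for the locus, rose by 2.91 ± 0.25 (adjusted p = 2.59e-06). The hairpins, with mature strands in capitals, are given because both strands of each fall within these short windows of the plus strand (GRCm38.p6, chr16:77598936-77599000 and chr16:77599657-77599750).

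Mir99a: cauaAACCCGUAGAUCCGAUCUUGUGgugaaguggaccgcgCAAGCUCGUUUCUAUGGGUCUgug
Mirlet7c-1: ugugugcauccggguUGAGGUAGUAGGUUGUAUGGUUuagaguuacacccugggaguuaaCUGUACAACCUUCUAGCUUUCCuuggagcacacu

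The loci that hold the paralogs of these genes differed less from NesGFP. On chromosome 9, inside the long transcript Mir100hg, 2 genes rose by the limma fit, while the host rose by 1.40. These were Mir100, by 1.27 ± 0.17 (adjusted p = 7.81e-05), and Mirlet7a-2, by 1.05 ± 0.32 (adjusted p = 0.0187). Mir100 read 4.86, 4.37 and 5.13 in NesGFP, 5.80 to 6.29 in the 6 Tbr2 arrays and 5.15 and 5.69 in PomcGFP. All but 2 of the 11 values, both in kiTbr2GFP, lay below the 25th percentile of their array, so their order is not read here. With the NesGFP arrays set at those percentiles, the difference of Mir100 was 0.11. The rise of Mirlet7a-2 rested in part on a first kiTbr2GFP array at 8.21 (5.55 to 6.71 on the other 10), and without the second NesGFP array its adjusted p was 0.0659. Mir125b-1, in the same host, did not pass (0.32 ± 0.51, with a first NesGFP array at 7.75).

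In the related locus on chromosome 17, inside Spaca6, none of the 3 genes passed. Mir99b was at -0.22 ± 0.13, Mirlet7e at 0.24 ± 0.13 and Mir125a at 0.19 ± 0.13, although Spaca6 rose by 1.00. Genes with the seed of miR-99 therefore ran from -0.22 through 1.27 to 4.15.

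The let-7 genes with the seed GAGGUAG in the table were spread in the same way, from -0.49 to 4.0, and 3 of the 7 rose. With Mirlet7a-2, 4 of the 8 measured let-7 genes rose by the fit. For Mirlet7a-1, Mirlet7a-2 and Mirlet7c-1 all 3 NesGFP arrays lay below their 25th percentiles. For Mirlet7d 2 NesGFP arrays and 2 Tbr2 arrays did. With such NesGFP arrays set at the percentiles, the differences of the 4 genes were 0.32, 0.83, 2.06 and 0.27 in that order. Of the cluster on chromosome 13, Mirlet7a-1 rose by 0.57 ± 0.11 (adjusted p = 0.000946) and Mirlet7d by 0.47 ± 0.13 (adjusted p = 0.011). Mirlet7f-1, their neighbour, was at -0.49 ± 0.30 and did not pass, its arrays running from 6.68 to 7.47 in NesGFP and from 5.80 to 7.30 in the Tbr2 lines. Mirlet7g (0.23) and Mirlet7i (0.17) did not pass either. All of these let-7 differences apart from those of Mirlet7a-1, Mirlet7a-2 and Mirlet7c-1 were below 0 on the scale centred on the class.

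**Figure D2:**
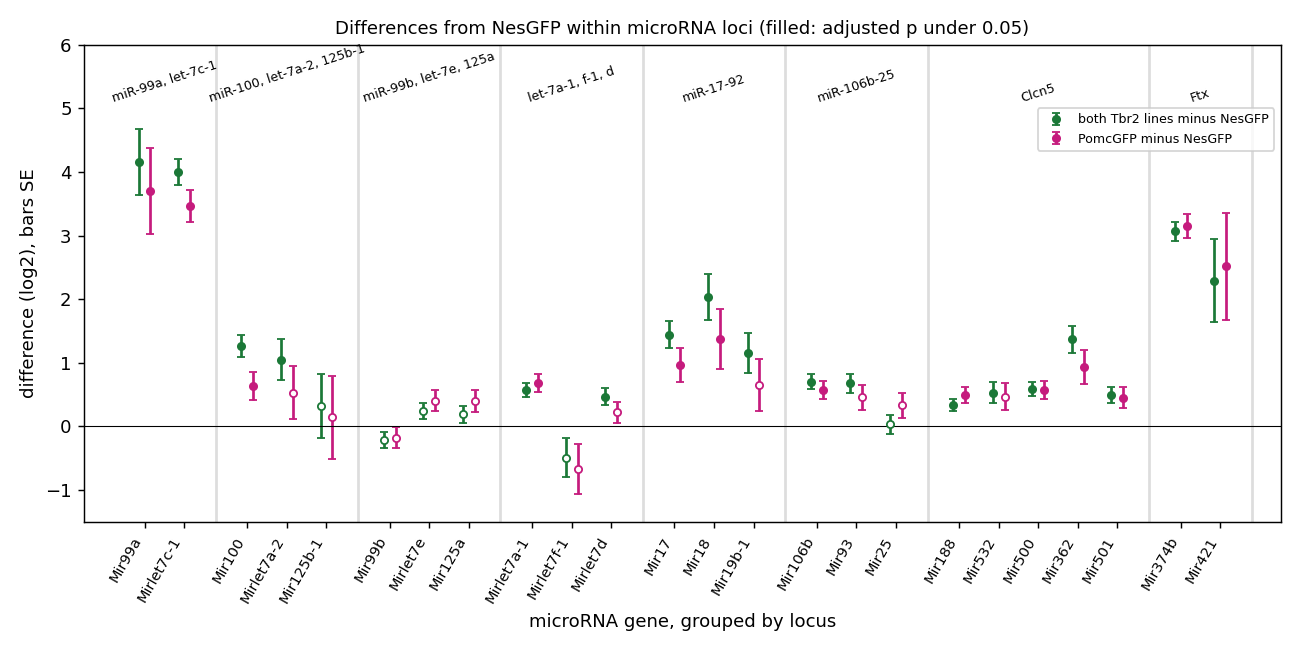
Differences from NesGFP (log2, vertical axis, points with SE bars) are plotted for microRNA genes grouped by locus (horizontal axis), for both Tbr2 lines together and for PomcGFP, and filled points passed the test. Mir99a and Mirlet7c-1 lie near 4, the 5 genes in Clcn5 between 0.33 and 1.37 in the Tbr2 lines, and the locus of Mir99b, Mirlet7e and Mir125a between -0.22 and 0.24.

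The 3 measured genes of the miR-17 to miR-92 cluster, a Myc-driven cluster known for promoting division, rose by the fit, Mir19b-1 only from values near or under the filter. Mir18 read 3.84, 5.88 and 3.97 in NesGFP, 6.36, 6.68 and 6.77 in kiTbr2GFP, 6.41, 6.77 and 6.61 in tgTbr2GFP and 6.09 and 5.77 in PomcGFP. The second NesGFP array was the highest of its line and overlapped PomcGFP but not the Tbr2 lines, and all 3 lay below their 25th percentiles (set at them, the rise was at least 1.58-fold). The rise in the Tbr2 lines was 2.04 ± 0.36 for Mir18 (adjusted p = 0.000658) and 1.44 ± 0.21 for Mir17 (adjusted p = 0.000159).

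Mir19b-1 rose by 1.15 ± 0.31 (adjusted p = 0.00989, but 0.0530 without the second NesGFP array). The other probe sets of the cluster gave no further value, since Mir19a and Mir20a lay below the filter. Mir17hg, its long transcript, rose by 0.91. In the related cluster within Mcm7, a gene of the replicative helicase, Mir106b rose by 0.70 ± 0.11 and Mir93 by 0.68 ± 0.15, and Mir25 did not pass (0.03 ± 0.15). The difference of Mcm7 itself was -0.11, short of the test. All 3 measured genes with the seed AAAGUGC (Mir17, Mir93 and Mir106b) thus rose in the Tbr2 lines, where 3 of 4 markers of dividing cells rose too; the part of division was not tested.

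Members of the miR-15 family, which is known to restrain the cell cycle, had unequal values, also within the pair Mir195a and Mir497 on chromosome 11. Mir15a rose by 1.76 ± 0.33 (adjusted p = 0.000895) and Mir497 by 0.46 ± 0.14 (adjusted p = 0.017, up to 0.0680 without NesGFP replicate 1 or 3, and not called with array weights). Mir16-2 and Mir195a did not pass (0.14 ± 0.12 and 0.04 ± 0.27). Mir16-2 lies inside Smc4, a condensin subunit that rose by 3.34, so the gene and the microRNA within it differed widely, though the strand of Smc4 is not in the tables used.

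Brain-enriched microRNAs had unequal values. Mir9-1 and Mir9-3, 2 genes of miR-9, rose by 1.21 ± 0.32 (adjusted p = 0.00752) and 0.92 ± 0.21 (adjusted p = 0.00367). Both lay below the 25th percentile on 2 NesGFP arrays, and Mir9-3 also on 2 Tbr2 arrays and both PomcGFP arrays. With such NesGFP arrays set at their percentiles, differences of 1.16 and 0.39 were left. Mir124a-2, the measured gene of miR-124, read 6.45 to 6.52 in NesGFP, 6.38 to 6.67 in the 6 Tbr2 arrays and 6.47 on both PomcGFP arrays, a difference of 0.00 ± 0.09. Its level thus did not separate the lines, close above a filter that Mir124a-3 failed. Mir134, known from dendrites, rose by 0.38 ± 0.10, and Mir212, a gene induced by neuronal activity, did not pass (0.09 ± 0.08). On the scale centred on the class, Mir134 was at -0.11, Mir212 at -0.40 and Mir124a-2 at -0.49.

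The 2 genes of miR-128 yield the same mature strand and lie in different hosts, Mir128-1 in R3hdm1 and Mir128-2 in Arpp21. Mir128-1 read 5.87, 6.69 and 5.88 in NesGFP, 7.80 to 9.20 in the 6 Tbr2 arrays and 9.22 and 8.41 in PomcGFP. All arrays of the other lines were above NesGFP. The rise was 2.44 ± 0.31 (adjusted p = 5.18e-05), beside 1.31 for R3hdm1. Mir128-2 rose by 0.43 ± 0.14 (adjusted p = 0.0266, up to 0.118 without 1 array, and lost without NesGFP replicate 1 or 2, kiTbr2GFP replicate 2 or 3 or tgTbr2GFP replicate 3), and Arpp21 was at -0.01. Their hairpins are shown because the shared strand, in the second run of capitals, sits in unlike flanks (GRCm38.p6, chr1:128202361-128202430 on the plus strand and chr9:112118636-112118711 on the minus strand).

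Mir128-1: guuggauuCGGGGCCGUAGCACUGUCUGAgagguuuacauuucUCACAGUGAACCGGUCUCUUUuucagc
Mir128-2: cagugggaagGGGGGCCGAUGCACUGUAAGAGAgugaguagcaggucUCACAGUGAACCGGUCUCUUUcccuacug

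Measured genes with an identical mature strand formed 8 such sets, 7 of them pairs. For each pair the difference between the genes within an array was compared between the 6 Tbr2 and 3 NesGFP arrays. The comparison used a two-sided exact permutation test over 84 splits, which doubles the smaller tail, so that its smallest p is 0.0238. The gap of Mir128-1 over Mir128-2 was larger in the Tbr2 lines by 2.01 (exact p = 0.0238, adjusted over the 7 pairs 0.0833). The other 6 pairs differed by 0.17 to 0.48 in size, with adjusted exact p from 0.0833 to 0.667, so none of the 7 passed. A single pair could not have passed in this design. Even the pairs of miR-128 and miR-129, both at the smallest p, had an adjusted exact p of 0.0833. The set of 3 genes, Mir680-1, Mir680-2 and Mir680-3, gave 1.33, 1.15 and 1.21, and probes for such near-identical copies may read each other's transcripts.

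Mir690, Mir350, Mir325, Mir186 and Mir374b were the most widely separated of the genes outside these families. Mir690, within Fgf12, read 3.75, 3.36 and 3.85 in NesGFP, 7.73, 8.07 and 7.51 in kiTbr2GFP, 7.70, 7.18 and 8.32 in tgTbr2GFP and 7.44 and 6.86 in PomcGFP, a difference of 4.10 ± 0.24 (adjusted p = 1.58e-07). Mir350, within Cep170, read 4.20, 4.75 and 4.88 in NesGFP and 8.01 to 8.33 on the other 8 arrays, a difference of 3.62 ± 0.15 (adjusted p = 2.39e-08). In both, the NesGFP arrays stood more than 3 units below every other array and under their 25th percentiles. Set at those percentiles, they leave rises of at least 3.50-fold for Mir690 and 4.88-fold for Mir350.

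Mir325 rose by 3.28 ± 0.30, Mir186 by 3.01 ± 0.19 and Mir374b by 3.07 ± 0.15, each with no overlap and with all NesGFP arrays below their 25th percentiles. Set at those, the rises were at least 5.23-fold, 2.66-fold and 1.22-fold. Mir568 had the smallest p of the class, at 4.62 to 4.98 in NesGFP against 7.13 to 7.71 on the other arrays (2.67 ± 0.10, adjusted p = 1.97e-08), or at least 2.97-fold by the same bound. Mir1a-2, a gene of the muscle microRNA miR-1, rose by 2.85 ± 0.37 from values of 2.84 to 3.27 in NesGFP to 4.80 to 6.88 in the Tbr2 lines, a range that spans the 25th percentiles, so that no fold is given. Mir340, in an intron of Rnf130, overlapped: it read 7.40, 3.26 and 3.01 in NesGFP and 7.13 to 8.60 in the Tbr2 lines (3.43 ± 0.79, adjusted p = 0.00373), so that the first NesGFP array lay within the range of the Tbr2 arrays.

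**Figure D3:**
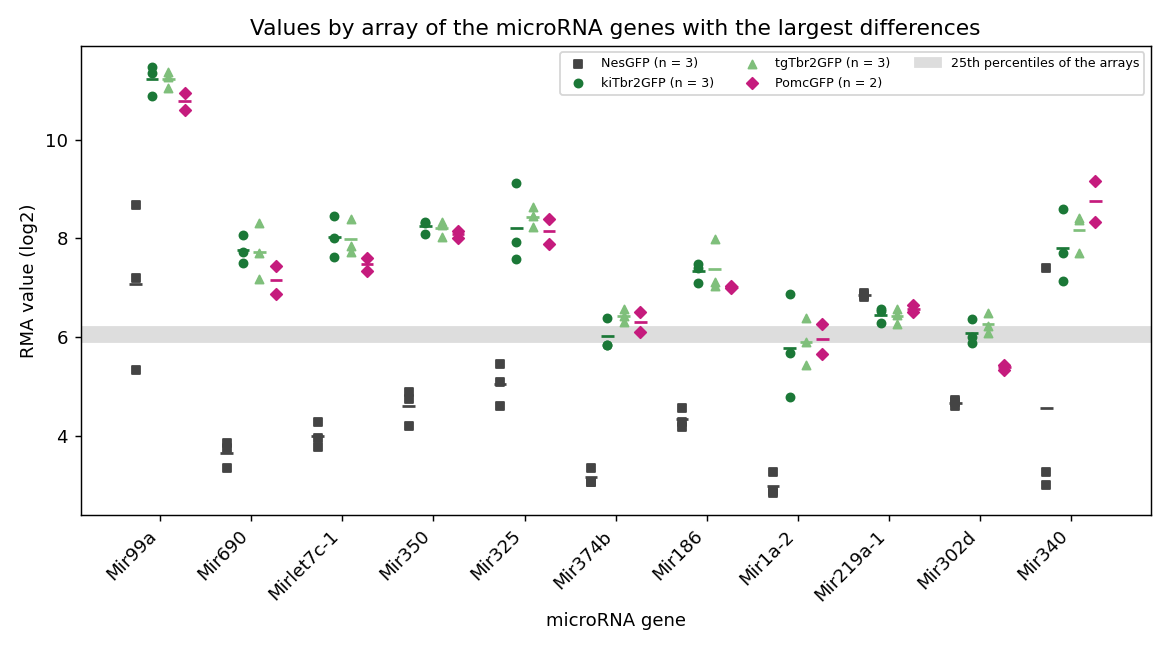
Each point is the RMA value (log2, vertical axis) of 1 array for the microRNA genes with the largest differences (horizontal axis), with marks for the 4 reporter lines, short bars for line means and a grey band for the 25th percentiles of the arrays (5.90 to 6.20). NesGFP points lie below all others except in Mir340, where 1 array is at 7.40, and in Mir219a-1, where they lie above.

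Only 2 of the measured genes fell in the mean of both Tbr2 lines against NesGFP. Mir219a-1, a gene of miR-219, which is known for oligodendrocyte differentiation, read 6.81, 6.86 and 6.90 in NesGFP, 6.28, 6.52 and 6.56 in kiTbr2GFP, 6.27, 6.45 and 6.56 in tgTbr2GFP and 6.64 and 6.50 in PomcGFP. It was the 1 gene whose NesGFP arrays all lay above the other 8, and it fell by 0.42 on the log2 scale (-0.42 ± 0.10, adjusted p = 0.00534). Mir219a-2, which encodes the same strand, was at -0.58 ± 0.24 (adjusted p = 0.0599), with 1 NesGFP array at 7.59 and the others at 6.35 and 6.37. Mir129-2 fell (-0.36 ± 0.11, adjusted p = 0.0215), a call lost without the first or second NesGFP array (adjusted p up to 0.0992), while Mir129-1 was at 0.07.

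Other microRNAs known from non-neuronal cells rose, did not pass or were not measured. Mir338, also known from oligodendrocytes, rose by 0.32 ± 0.11 and its host Aatk fell (-0.68). Mir143, known from smooth muscle, rose by 0.49 ± 0.15, where all 5 mural markers fell. Both calls were lost without 1 or another array, NesGFP 1 or 2 among them (adjusted p up to 0.159 and 0.0941). Mir155, known from immune cells, was at 0.02 ± 0.14. Mir126a of endothelium, Mir145a of smooth muscle and Mir142 of blood cells lay below the filter.

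The 5 measured genes in introns of Clcn5, a chloride transporter gene on the X chromosome, all rose. Mir362 rose by 1.37 ± 0.21, Mir500 by 0.59 ± 0.11, Mir532 by 0.53 ± 0.16, Mir501 by 0.50 ± 0.13 and Mir188 by 0.33 ± 0.10, beside 1.34 for Clcn5. The calls of Mir188 and Mir532 were lost without the first NesGFP array, and that of Mir532 also without the second (adjusted p up to 0.0709 and 0.0692). By the fit, Mir374b and Mir421, in Ftx, rose by 3.07 and by 2.29 ± 0.65, the latter not called with array weights. For both genes all NesGFP arrays lay below their 25th percentiles, as did 2 Tbr2 arrays for Mir374b and 4 for Mir421. With the NesGFP arrays set at those percentiles, a rise of at least 1.22-fold was left for Mir374b. None was left for Mir421 (-0.09 on the log2 scale).

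The imprinted Dlk1 to Dio3 region on chromosome 12 holds the largest group, of which 15 genes were measured and 25 lay below the filter. Of the 15, 5 rose and none fell, with a median of 0.25. Mir667 rose most (0.74 ± 0.11, adjusted p = 0.000163), followed by Mir673 (0.57 ± 0.09), Mir341 (0.54 ± 0.09), Mir679 (0.51 ± 0.15, lost without the first NesGFP array) and Mir134. Rian, the noncoding host of Mir341, rose by 2.16.

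In the miR-181 family, known from lymphocytes and brain, 3 of 4 measured genes rose. Mir181b-2 rose by 1.94 ± 0.22, Mir181c by 0.85 ± 0.25 and Mir181d by 0.75 ± 0.13, and Mir181a-2 did not pass (0.49 ± 0.21). All 3 measured genes with the seed GGCAGUG, of the miR-34 and miR-449 family known from multiciliated cells, rose: Mir34b by 0.74 ± 0.15, Mir449c by 0.52 ± 0.13 and Mir449a by 0.39 ± 0.12 (adjusted p 0.104 without NesGFP replicate 2).

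The differences of microRNA genes and of the genes around them were only loosely related. Of 61 measured microRNA genes that lay on the same strand within a measured host (45 hosts), 37 rose, and their host rose in 16, fell in 5 and did not pass in 16. The median was 0.50 for the microRNA genes and 0.04 for the hosts, and across the 61 pairs, some of which share a host, Spearman's rho was 0.13 and Pearson's r 0.18. Mir350 and Cep170, a centrosomal protein gene, rose together (3.62 and 2.65), as did Mir186 and Zranb2 (3.01 and 0.76). Mir340 rose while Rnf130 fell (3.43 and -1.05), and so did Mir483 and Igf2 (0.66 and -1.19) and Mir139 and Pde2a (0.49 and -0.92).

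Mir152 did not move with Copz2, which fell by 2.80 on the log2 scale (-0.02 and -2.80). Mir690 stood at 4.10 and Fgf12 at 0.33, which did not pass. Inside a gene of the same strand 48 of 76 microRNA genes rose and 1 fell (median 0.53), and outside any such gene 24 of 56 rose and 1 fell (median 0.32).

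**Figure D4:**
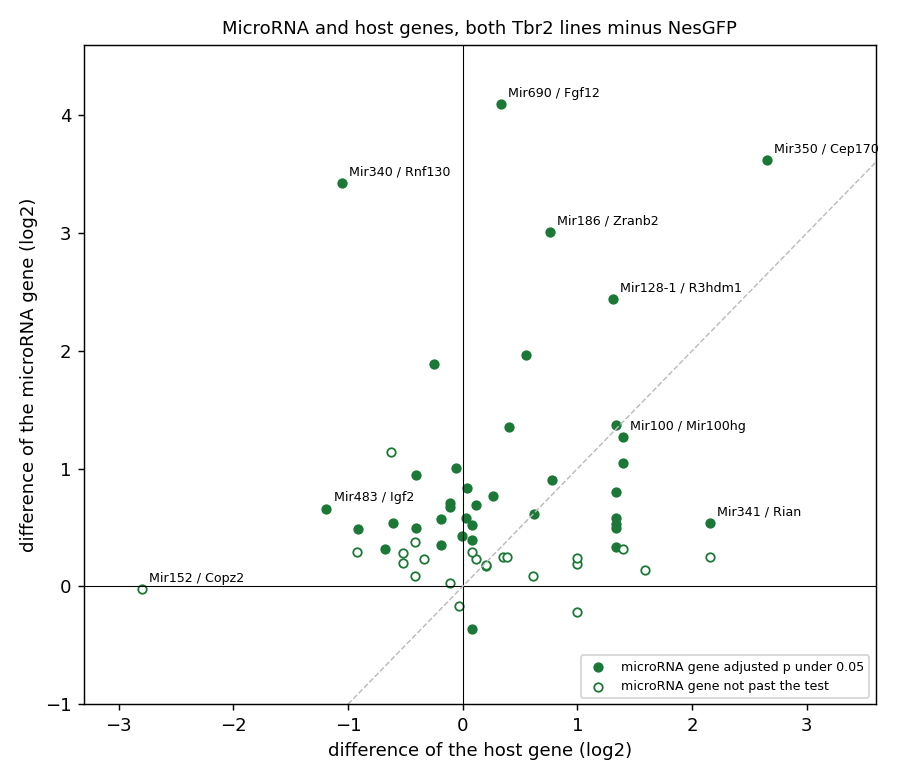
Each point sets the difference of a microRNA gene (log2, vertical axis) against that of its host gene (log2, horizontal axis) for both Tbr2 lines minus NesGFP, over 61 pairs, with equal values on the dashed line and filled points for microRNA genes past the test. Points spread on both sides of a host difference of 0, from Mir152 in Copz2 at -2.80 to Mir350 in Cep170 at 2.65.

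Most rises beyond 2-fold lay in microRNA genes with few G and C bases in the hairpin, though Mir99a, with the largest of all, has a share of 52.3%. Over the 135 measured genes with a hairpin in the table, the difference between both Tbr2 lines and NesGFP had a Spearman's rho of -0.50 with the share of G and C (Pearson's r -0.52), and the mean level had one of 0.51. Of the 45 genes with the lowest share (31.3% to 48.6%) 31 rose, 23 of them more than 2-fold, with a median of 1.03. Of the 45 in the middle 18 rose, and of the 45 with the highest share (56.0% to 69.2%) 20, with 3 and 2 beyond 2-fold and medians of 0.30 and 0.29. Among all measured microRNA genes, 19 of the 31 rises beyond 2-fold were in genes below the 25th percentile on all 3 NesGFP arrays. With NesGFP values set at that percentile, 18 of the 31 stayed beyond 2-fold. How these genes divide by share of G and C was not counted, nor was the share of all genes beyond 2-fold. PomcGFP against both Tbr2 lines gave a rho of 0.41. The genes share arrays and amplification, and the part of base composition was not tested.

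**Figure D5:**
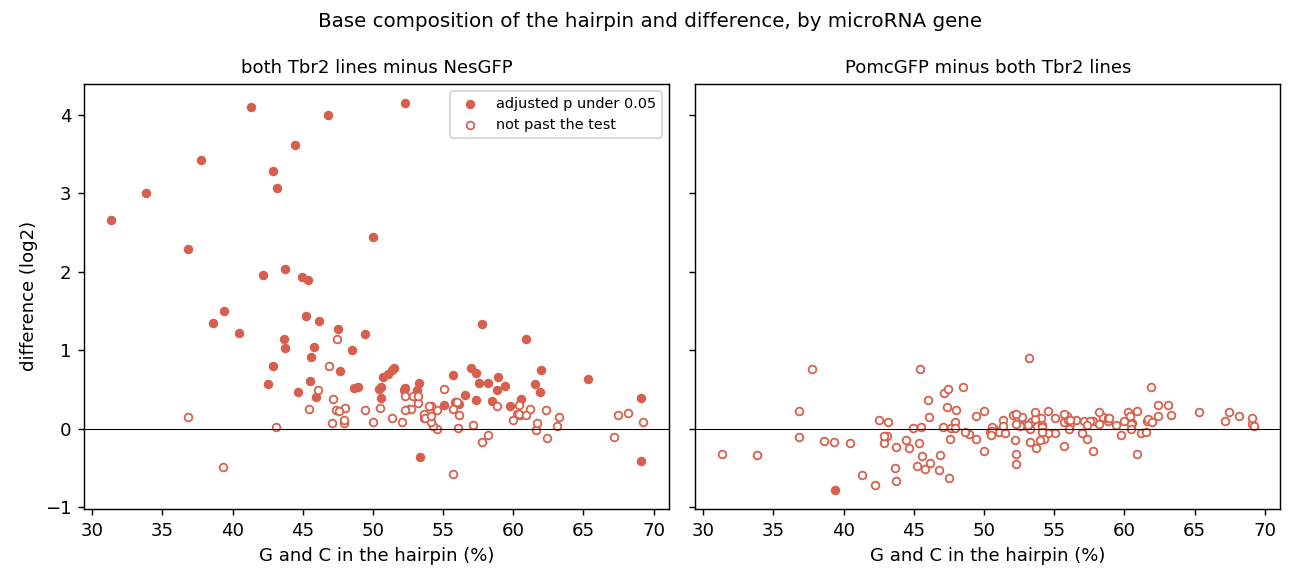
The difference of each of 135 microRNA genes (log2, vertical axis) is plotted against the percentage of G and C in its hairpin (horizontal axis), on the left for both Tbr2 lines minus NesGFP and on the right for PomcGFP minus both Tbr2 lines, with filled points past the test. On the left 23 of the 45 genes up to 48.6% rise more than 2-fold, against 2 of the 45 genes of 56.0% or more.

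PomcGFP cells also had higher microRNA genes than NesGFP cells, whose arrays both comparisons use. Against NesGFP 72 of the 163 genes rose and none fell by limma, whereas 15.9% of all genes rose and 24.0% fell. Of the 72, 22 rose more than 2-fold, again without a count over all genes. At an unadjusted p under 0.05 there were 94 higher and 0 lower, against 20.2% and 27.8% of all genes. The median was 0.47 against 0.00 for all genes. The count rested on few arrays: it was 41 without the second PomcGFP array, and 30 of the 72 calls held whichever single array was left out, compared with 64 of 88 in the Tbr2 comparison. On the scale centred on the class, shifted by -0.51, 20 genes were higher and 26 lower.

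The largest difference between PomcGFP and NesGFP was that of Mir340, at 9.17 and 8.33 in PomcGFP (4.19 ± 1.02, adjusted p = 0.00685, but 0.0608 without the first PomcGFP array and 0.0614 when the 2 lines were fitted alone). Mir99a was higher by 3.70 ± 0.67, Mir690 by 3.50 ± 0.30, Mir350 by 3.47 ± 0.19 and Mirlet7c-1 by 3.46 ± 0.26. Mir204, in an intron of Trpm3, stood at 6.76 and 6.80 in PomcGFP against 5.04 to 5.41 in NesGFP and 5.87 to 6.71 in the Tbr2 lines. For this gene all 3 NesGFP arrays and 3 Tbr2 arrays lay below their 25th percentiles, where values are taken as not reliably measured. The PomcGFP arrays were the highest of all, by 1.54 ± 0.18 over NesGFP by limma (adjusted p = 5.52e-05). Over the Tbr2 lines the difference was 0.53, which did not pass (adjusted p = 0.11). Mir665 was likewise higher than NesGFP by 1.32 ± 0.30 and than the Tbr2 lines by 0.90 (adjusted p = 0.10 in the latter).

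Between PomcGFP and both Tbr2 lines 1 of the 163 genes passed, and it was lower in PomcGFP, where 1.73% of all genes were lower and 2.0% higher. No gene was higher by limma, with 6 higher and 8 lower at an unadjusted p under 0.05, against 6.8% and 6.46% of all genes. The gene was Mir302d, whose cluster is known from pluripotent stem cells. It read 4.73, 4.61 and 4.69 in NesGFP, 6.36, 6.0 and 5.88 in kiTbr2GFP, 6.23, 6.09 and 6.50 in tgTbr2GFP and 5.34 and 5.45 in PomcGFP.

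The Tbr2 arrays were highest, the NesGFP arrays lowest, and the PomcGFP arrays lay between without overlap. All NesGFP and PomcGFP arrays and 3 of the 6 Tbr2 arrays lay below their 25th percentiles, so this order is one of values near or under the filter. The difference was -0.78 ± 0.15 (adjusted p = 0.0116). With the PomcGFP arrays set at their 25th percentiles the Tbr2 lines were at least 1.03-fold higher. The call did not pass when either PomcGFP array was left out (adjusted p up to 0.155). The genes of the miR-17 cluster were lower in PomcGFP without passing, at -0.67 for Mir18, -0.50 for Mir19b-1 and -0.48 for Mir17.

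The knock-in and the transgenic Tbr2 line did not differ in any measured microRNA gene by limma, where 0.436% of all genes were higher and 0.684% lower in kiTbr2GFP. At an unadjusted p under 0.05, 4 genes were higher and 6 lower, against 3.35% and 5.86% of all genes. With array weights 5 were higher and 3 lower, where the share of all genes was not counted. The lowest adjusted p was 0.160, and the largest difference was that of Mir32 (-1.34 ± 0.51, adjusted p = 0.372), which ran from 4.96 to 6.35 in kiTbr2GFP and from 5.79 to 8.15 in tgTbr2GFP. Against NesGFP alone, 78 genes rose and 1 fell in kiTbr2GFP (18.2% and 27.0% of all genes), and 66 rose and 2 fell in tgTbr2GFP (15.8% and 25.8%). These comparisons share the NesGFP arrays.

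Over the 4 lines together, 67 of the 163 genes (41.1%) passed limma's moderated F test, beside 43.4% of all genes.

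Genes that make, load and degrade microRNAs were read on the same arrays. Of 29 listed, 27 were measured, and in both Tbr2 lines against NesGFP 12 rose, 2 fell and 13 did not pass, where 19.8% of all genes rose and 29.1% fell. Among the nuclear factors, Dgcr8 rose by 0.27 ± 0.08 and Ddx5, a helicase of the Drosha complex, by 0.52 ± 0.10, Drosha did not pass (0.05 ± 0.16) and Xpo5, the exporter of hairpins, fell (-0.61 ± 0.13). Dicer1 rose by 0.45 ± 0.13.

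Among the effectors, Ago3 and Ago4 rose by 0.81 ± 0.14 and 1.03 ± 0.10 while Ago1 and Ago2 did not pass (0.02 ± 0.09 and 0.06 ± 0.11). All 3 genes of the Tnrc6 scaffold, which recruits the silencing machinery, rose, by 1.34 (Tnrc6a), 0.86 (Tnrc6b) and 0.57 (Tnrc6c). Tut4 and Tut7, which add uridines to let-7 hairpins, rose by 2.68 ± 0.15 and 1.11 ± 0.23, and Dis3l2, the nuclease of such hairpins, fell (-0.49 ± 0.13). Xrn1, an exonuclease, rose by 1.76 ± 0.11. None of the 27 passed between PomcGFP and the Tbr2 lines, or between the 2 Tbr2 lines.

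Another class of short RNA genes was read beside them. Of 50 measured small nucleolar and Cajal body RNA genes, 16 rose and 8 fell in both Tbr2 lines against NesGFP, against 19.8% and 29.1% of all genes, with a median of 0.29 against -0.02.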

How the data were processed

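The deposited values are 1 log2 value per probe set and array, which the authors made with RMA (oligo package, no version named), per the submitters' processing notes; RMA subtracts background, equalizes the arrays and summarizes probes. Of 28858 probe sets, 21789 had 1 symbol, and 18097 of these passed the filter (25th percentile, at least 2 arrays). The probe set with the highest mean stood for its gene. One cell-means fit by limma 3.58.1 (R 4.3.3) covered all 11 arrays and 4 lines with 7 residual and 4.22 prior degrees of freedom, two-sided moderated tests and Benjamini-Hochberg adjustment over 16527 genes. Differences are log2 values, ± SE of the fit. Hosts are genes whose RefSeq interval holds the hairpin, and clusters join hairpins within 10000 bases. Members just inside the filter, on exactly 2 arrays, were Mir100, Mir196a-1, Mir221, Mir298, Mir30e, Mir701 and Mirlet7g, and 9 lay just outside, on 1. Genes named are the 8 largest differences in each direction past the test without overlap, a panel of neural microRNAs (29 of 59 measured), and members of clusters, seed groups, hosts and cell type lists; Mir568, Mir340, Mir421, Mir204, Mir665 and Mir32 were also picked after their values were seen. The members and lists were chosen with earlier results of these data known. The fit was tested on simulated data.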

Additional observations from a re-analysis of the deposited data

How the results depend on the processing

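The direction of the class against NesGFP was the same under cyclic loess and centring on the array median. Centring on the microRNA median shifts all differences from NesGFP by -0.49 (Tbr2) or -0.51 (PomcGFP) and so turns smaller rises by construction. Under it, the count for PomcGFP against NesGFP went from 72 to 46. In both Tbr2 lines against NesGFP that centring turned, among panel genes called on either scale, Mir124a-2 (-0.49), Mir212 (-0.40), Mir134 (-0.11), Mir128-2 (-0.060), Mir125a (-0.30), Mirlet7d (-0.024), Mirlet7e (-0.25), Mirlet7i (-0.33) and Mir25 (-0.46), and in PomcGFP against NesGFP Mir212 (-0.39), Mir134 (-0.067) and Mirlet7i (-0.38). The single call between PomcGFP and both Tbr2 lines became 0 with a 50th percentile filter, 7 with array weights and 3 when the compared groups were fitted alone. Between the Tbr2 lines array weights gave 8 calls in place of 0. The cause was not tested. Leaving out 1 array at a time gave 72 to 93 calls for both Tbr2 lines against NesGFP, 41 to 84 for PomcGFP against NesGFP (41 without PomcGFP replicate 2), 0 to 2 for PomcGFP against both Tbr2 lines (0 without PomcGFP replicate 2, 2 without NesGFP replicate 2), 0 to 1 between the Tbr2 lines (1 without NesGFP replicate 3) and 49 to 74 for the F test. Without a PomcGFP array the remaining one was assumed to vary like the other lines. In the Tbr2 comparison 74 of the 88 calls were not lost under any setting with all arrays that tested the gene. This count leaves aside centring on the microRNA median and the fit without a filter. Genes dropped by the 50th percentile filter count as not lost.

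With the replicate number as a block the counts were 95, 91, 2, 0 and 82 for both Tbr2 lines against NesGFP, PomcGFP against NesGFP, PomcGFP against both Tbr2 lines, kiTbr2GFP against tgTbr2GFP and the F test. Deviations of same-numbered arrays correlated at -0.11 to 0.26 (0.13 to 0.26 for replicate 3). Not every such pair was over 0.1 and the labels name no shared source, so the arrays were not treated as paired. Of the 296 microRNA genes 133 lay below the filter, and 3 or 2 arrays per line limit the precision. After seeing the data, NesGFP values under the 25th percentile were also set at it, which took the genes risen beyond 2-fold from 31 to 18.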
